A study of Caenorhabditis elegans with 2 samples.

Results

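Heat shock proteins, chaperones and cyclophilins were taken as the protein-coding genes whose Ensembl symbol is hsp-, dnj-, cct-, pfd- or cyn- followed by a digit, together with F44E5.4 and F44E5.5. The rule gave 83 of 19973 protein-coding genes, namely 24 heat shock protein genes (with F44E5.4 and F44E5.5, which encode HSP70 proteins), 29 DnaJ genes, 8 CCT genes, 6 prefoldin genes and 16 cyclophilin genes. Binding of the T-box transcription factor MAB-9 was measured by chromatin immunoprecipitation and sequencing (ChIP-seq) with an antibody against GFP. The worms were Caenorhabditis elegans of strain RW12257. They carry the allele st12257[mab-9::TY1::EGFP::3xFLAG] on chromosome II, a CRISPR insertion of the tag at the endogenous mab-9 gene. Whole L1 larvae with a stated age of 6 hours were used, synchronised by starving the hatchlings of bleached worms. All samples form 1 group of 2 biological replicates, with no untagged or other comparison group among the files used, so no test between groups was possible. Whole larvae were used, so binding cannot be assigned to a cell type, and with no expression values the tissue labels could not be checked against markers.

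Chaperones bind unfolded proteins and keep them from aggregating. HSP70 proteins work in cycles with DnaJ proteins, which deliver clients and trigger ATP hydrolysis, HSP90 acts on partly folded clients, small heat shock proteins hold unfolded ones, prefoldin passes actin and tubulin to the CCT ring, and cyclophilins isomerise proline bonds. Under heat stress the factor HSF-1 drives many of these genes through heat shock elements, arrays of the unit GAANN in alternating orientation. MAB-9 is known for roles in the hindgut, the male tail and motor neurons.

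A gene was called when a summit of the conservative peak list, which combines both replicates in 1431 peaks, lay within 2000 bp of any of its transcript starts. The signal is the value the authors' peak caller wrote for each peak. It has no stated scale, and is used here to describe and rank peaks. In all, 25 of the 83 members (30.1%) were called, beside 7.92% of all protein-coding genes (1581 of 19973). The strongest were the heat-inducible HSP70 pair F44E5.4 and F44E5.5, the mitochondrial chaperonin hsp-60, the cytosolic HSP90 gene hsp-90 and the CCT subunit cct-8. Of the 13 small heat shock protein genes among the members, 1 was called (7.69%), near the share of all genes. It was hsp-12.3, with its summit past the end of the gene. Another pooled list also called the hsp-16.1 and hsp-16.48 genes, which share 1 peak. Their promoters consist of sequence that repeats in the genome, and how reads from repeats were placed is not stated. No test is given on the member count. The replicates are 2 biological replicates of 1 strain, and their spread is given as the SD.

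The sequences from 100 bp before to 100 bp after the 4 strongest distinct summits are given first, to show which of them hold heat shock units. Capitals mark each match to a pair of heat shock units, GAANNTTC or TTCNNGAA, on either strand. All sequences are from the RefSeq assembly WBcel235, the ce11 build, plus strand unless said. The first lies between the starts of F44E5.4 and F44E5.5 (chrII:11759333-11759533), the second upstream of hsp-60 (chrIII:1619055-1619255), the third at hsp-90 (chrV:14685669-14685869) and the fourth upstream of cct-8 (chrIV:1094251-1094451). The fifth is the promoter of the small heat shock gene hsp-16.2 on the minus strand, from 250 bp before to 50 bp after the gene start (chrV:1804908-1805207). It was added after its values were seen, because it has heat shock units and no summit in the conservative list.
F44E5.4 and F44E5.5: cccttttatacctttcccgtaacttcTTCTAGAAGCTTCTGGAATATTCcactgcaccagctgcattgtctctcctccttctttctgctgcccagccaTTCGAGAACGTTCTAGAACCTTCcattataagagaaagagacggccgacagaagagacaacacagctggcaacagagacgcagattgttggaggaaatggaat
hsp-60: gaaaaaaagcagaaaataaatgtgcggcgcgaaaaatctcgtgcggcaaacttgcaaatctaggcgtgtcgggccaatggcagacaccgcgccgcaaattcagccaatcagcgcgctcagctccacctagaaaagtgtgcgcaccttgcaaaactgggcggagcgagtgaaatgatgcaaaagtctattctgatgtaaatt
hsp-90: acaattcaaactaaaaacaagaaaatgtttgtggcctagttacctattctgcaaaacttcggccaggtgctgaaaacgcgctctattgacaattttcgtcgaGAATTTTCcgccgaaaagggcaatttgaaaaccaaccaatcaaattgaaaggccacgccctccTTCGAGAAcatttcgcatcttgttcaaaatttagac
cct-8: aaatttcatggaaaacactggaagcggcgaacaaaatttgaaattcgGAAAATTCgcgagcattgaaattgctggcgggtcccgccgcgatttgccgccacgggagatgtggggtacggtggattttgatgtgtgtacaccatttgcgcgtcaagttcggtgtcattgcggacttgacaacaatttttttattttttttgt
hsp-16.2: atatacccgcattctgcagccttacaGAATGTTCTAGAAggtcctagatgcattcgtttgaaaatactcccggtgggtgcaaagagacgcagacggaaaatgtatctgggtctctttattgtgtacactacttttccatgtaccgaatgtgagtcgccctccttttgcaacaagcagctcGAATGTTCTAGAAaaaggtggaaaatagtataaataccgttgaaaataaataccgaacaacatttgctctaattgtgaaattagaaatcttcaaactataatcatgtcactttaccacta

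The depth of the replicates is unknown, since the files used hold no read counts. Replicate 1 has a ranked list of 116030 peaks and replicate 2 one of 90836. Over all protein-coding genes the median of the strongest ranked signal within 2000 bp of a start was 24.9 in replicate 1 and 19.6 in replicate 2, so values of the replicates are not on quite the same scale. Each replicate also has its own thresholded list, of 824 peaks in replicate 1 and 869 in replicate 2. By these lists 21 members were called in replicate 1 (25.3%, beside 5.23% of all genes) and 21 in replicate 2 (25.3%, beside 5.56% of all genes). Of the 25 members called by the conservative list, 19 had their peak in both replicates' thresholded lists, dnj-12 and cyn-4 in replicate 1's only, dnj-22 in replicate 2's only, and pfd-6, cyn-3 and cyn-7 in neither.

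HSP70 genes encode the central ATP-driven chaperones, and 5 of the 8 HSP70 and HSP110 genes were called (62.5%, beside 7.92% of all genes). The shared peak of F44E5.4 (WBGene00009691) and F44E5.5 (WBGene00009692) had a signal of 607, the rank of 6 among the 1431 conservative peaks. Its replicate signals were 331 and 287, a mean of 309 ± 31.7 (SD, n = 2). The summit lay 122 bp upstream of F44E5.4, in the stretch between these divergent genes. The peak belongs to both starts, so it counts for 2 members and is 1 measurement.

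The same locus held more than the promoter peak. A conservative summit with a signal of 182 lay 90 bp past the end of F44E5.4, and another with a signal of 123 lay 105 bp past the end of F44E5.5. In replicate 1 the ranked signals there were 98.4 and 76.8, and in replicate 2 they were 80.4 and 56.3. In both replicates, then, each of the 2 genes had a summit before its start and another past its end. A search for conservative summits within 300 bp of a gene's end, made after this was seen, found 5 of 83 members (6.02%), beside 0.861% of all genes. The count includes F44E5.4 and F44E5.5, which prompted the search, so the share partly restates what was seen. The other 3 were hsp-12.3 (signal 219, 195 bp past the end), dnj-5 (111.8, 258 bp) and hsp-110 (87.4, 255 bp).

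**Figure D1:**
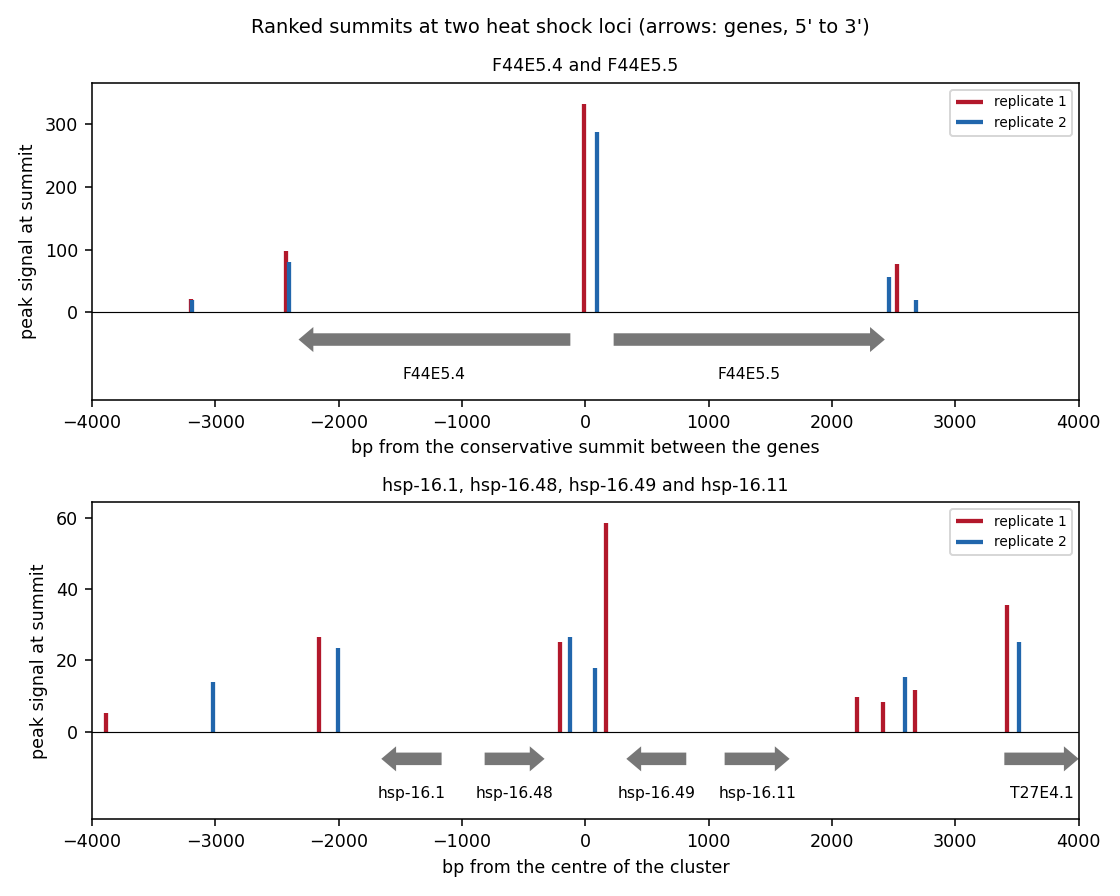
Signal of the ranked summits (vertical lines, moved slightly apart for the replicates) against distance in bp at the F44E5.4 and F44E5.5 locus (top) and at the hsp-16.1, hsp-16.48, hsp-16.49 and hsp-16.11 cluster (bottom), with genes as arrows. At the top the replicates reach 331 and 287 between the genes and have smaller summits past both gene ends; at the bottom the highest is 58.4, between the facing ends of hsp-16.48 and hsp-16.49.

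The constitutive members of the HSP70 group followed. At hsp-110 (WBGene00016250), whose product exchanges the nucleotide of HSP70, the peak (summit at chromosome III, 8447157) had a signal of 338, with 186 in replicate 1 and 136 in replicate 2 (161 ± 34.9, SD, n = 2). It lay 248 bp upstream of hsp-110 and nearer, at 196 bp, to the divergent proteasome gene rpn-3. The cytosolic HSP70 gene hsp-1 (WBGene00002005) had a signal of 297, with 151 and 148 in the replicates (150 ± 2.52, SD, n = 2), its summit 393 bp upstream at chromosome IV, 17278566. The peak of hsp-3 (WBGene00002007), an HSP70 of the endoplasmic reticulum, had a signal of 237, with 128 and 107.7 in the replicates (117.7 ± 14.2, SD, n = 2), 55 bp upstream. These genes stood above the median of all genes in each replicate, as did every called member, so this is no separate result.

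The remaining HSP70 genes were not called. For hsp-6, the mitochondrial HSP70, the strongest ranked signals within range were 43.5 in replicate 1 and 54.4 in replicate 2, but at summits 2286 bp apart. Replicate 2's thresholded list and the other pooled list held an hsp-6 peak, and in the pooled list its value was 71.6 at an offset of -330 bp. The second HSP70 of the endoplasmic reticulum, hsp-4, had 37.3 and 21.1, at summits 1108 bp apart. The heat-inducible hsp-70 had 20.9 and 16.3, below the medians of all genes. Its promoter holds 3 matches to a pair of heat shock units.

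HSP90 and the mitochondrial chaperonin were among the strongest members. At hsp-60 (WBGene00002025) the signal was 578, rank 8, with 297 and 280 in the replicates (288 ± 11.6, SD, n = 2). Its summit lay 587 bp upstream of hsp-60 and 226 bp from the start of Y22D7AL.10, the nearest gene. At hsp-90 (WBGene00000915) the signal was 474, rank 18, with 214 in replicate 1 and 264 in replicate 2 (239 ± 35.7, SD, n = 2), and it belonged to the 5 called members with the higher value in replicate 2. The summit lay 391 bp upstream of the inner of the 2 annotated starts of hsp-90, in an intron of its longer transcript and 851 bp past the outer start, and 284 bp from the start of C47E8.4. The other HSP90 gene, hsp-75, the mitochondrial form, was not called (22.5 and 24.2).

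The called small heat shock protein gene, 1 of 13 (7.69%, beside 7.92% of all genes), was hsp-12.3 (WBGene00002012), with a signal of 219 and 113 and 117 in the replicates (114.8 ± 3.04, SD, n = 2). Its summit lay 911 bp downstream of the start, past the end of the gene and 556 bp from the start of F38E11.9. The median over the 13 genes was 26.9 (mean of both replicates), against 22.4 over all protein-coding genes and 134 over the 8 HSP70 and HSP110 genes. The value of 26.9 is that shared by hsp-16.2 and hsp-16.41, whose replicate summits lay 1199 bp apart. The genes of the hsp-16.1 cluster share another value, 42.5, so the 13 genes are not 13 separate measurements. The lowest of the 13 was hsp-12.6, with 18.8 and 9.93, and the next hsp-12.1, with 16.6 and 14.4.

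The hsp-16 genes, strongly heat-inducible small chaperones, are arranged in divergent pairs. Ensembl gives the symbols hsp-16.1 and hsp-16.48 to 2 genes each, and RefSeq calls the second copies hsp-16.11 (WBGene00002017) and hsp-16.49 (WBGene00002020). For these 4 genes the strongest ranked summit was the same, 58.4 in replicate 1 and 26.5 in replicate 2, at positions 323 bp apart. In the other pooled list, which counts 29 members as called (34.9%, beside 8.06% of all genes), a peak with a signal of 60.4 lay there, between the facing ends of hsp-16.48 and hsp-16.49. Of the 632 31-mers between those ends, where the summits lay, 444 (70.3%) occur only once in the genome, while of the 270 of each of these 4 promoters 0 do. How reads from such repeats were placed is not stated, and its part in the result was not tested. The pair hsp-16.2 and hsp-16.41 differs, with 98.9% of 31-mers at a single place. There the strongest signals were 35.6 in replicate 1 and 18.3 in replicate 2, at summits 1199 bp apart, and replicate 2 lay below the median of all genes.

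DnaJ proteins are the partners of HSP70, and 7 of 29 genes (24.1%, beside 7.92% of all genes) were called. The strongest was dnj-13 (WBGene00001031), a type B DnaJ gene, with a signal of 328 and 187 and 137 in the replicates (162 ± 35.5, SD, n = 2), 192 bp upstream at chromosome II, 11545509. Its summit lay in an intron of dhgd-1 and in an exon of the non-coding RNA gene F54D5.22. A signal of 206 was found 122 bp upstream of dnj-28 (111 and 97.3 in the replicates), of 200 at 385 bp upstream of dnj-19 (110.4 and 84.4), and of 189 at 222 bp upstream of dnj-9 (117 and 74.7). The dnj-19 summit lay 11 bp from the start of nhr-47, in an exon of the non-coding RNA gene C24G6.10. The dnj-14 gene, orthologue of the synaptic vesicle protein CSP, had 142 (70.9 and 66.2), with glit-1 the nearest protein-coding gene. That summit lay in an exon of the non-coding RNA gene DL2.2.

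The weakest called DnaJ genes were dnj-22, with 83.5 (36.5 and 39.9 in the replicates), and dnj-12, with 80.7 (58.9 and 36.6). For dnj-12 the strongest ranked summits of the replicates lay 2186 bp apart, so its replicate values do not measure the same site. The highest uncalled genes were dnj-11 (40.0 and 27.8) and dnj-3 (47.7 and 18.5), and the lowest were dnj-23 (14.3 and 17.4) and dnj-15 (11.7 and 17.9). For dnj-21 neither ranked list held a summit within 2000 bp.

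The CCT genes encode subunits of 1 ring, and 3 of 8 were called (37.5%, beside 7.92% of all genes). At cct-8 (WBGene00021934) the signal was 460, rank 23, with 287 in replicate 1 and 166 in replicate 2 (226 ± 85.5, SD, n = 2), the widest gap between replicates among called members. It lay 431 bp upstream, nearer to Y55F3AR.2. At cct-1 (WBGene00000377) it was 300, with 173 and 139 (156 ± 24.0, SD, n = 2), 244 bp upstream and nearer to the divergent gene mig-5. At cct-7 (WBGene00020391) it was 90.8, with 54.2 and 45.3 (49.7 ± 6.29, SD, n = 2). The other subunit genes were not called. Their median percentile among all genes, by the mean of both replicates, was 69.6, beside 45.8 over all uncalled genes. Their signals ran from cct-2 (26.99 and 35.0) and cct-5 (35.0 and 22.6) to cct-3 (18.6 and 25.7) and cct-4 (31.0 and 9.74).

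Prefoldin is a complex of 6 subunits, and 2 of 6 genes were called (33.3%, beside 7.92% of all genes). The signal at pfd-1 (WBGene00007443) was 172, with 75.1 and 77.9 in the replicates (76.5 ± 1.98, SD, n = 2), 293 bp upstream. At pfd-6 (WBGene00009004) it was 98.9, with 65.9 and 43.2, and it was absent from the thresholded lists of both replicates. Among the uncalled, pfd-4 had 28.2 and 31.5, pfd-3 31.3 and 23.1, pfd-2 27.2 and 16.40, and pfd-5 20.3 and 17.6.

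Cyclophilins had 5 of 16 genes called (31.2%, beside 7.92% of all genes), mostly weakly. At cyn-10 (WBGene00000886) the signal was 303, with 154 in each replicate (153.6 ± 0.136, SD, n = 2), 139 bp upstream, and no other gene's start lay within range. The next were cyn-1 with 117 (75.004 and 48.4), cyn-4 with 100.5 (60.1 and 43.7), cyn-3 with 76.9 (48.3 and 28.1) and cyn-7 with 70.9 (40.6 and 35.3). The cyn-7 peak was absent from the other pooled list. Of the uncalled, cyn-2 (48.4 and 21.9) and cyn-13 (32.5 and 32.1) were highest, and cyn-5 (19.04 and 18.6) and cyn-17 (20.6 and 12.02) lowest. For cyn-11 only replicate 1 had a summit in range, with 27.6.

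**Figure D2:**
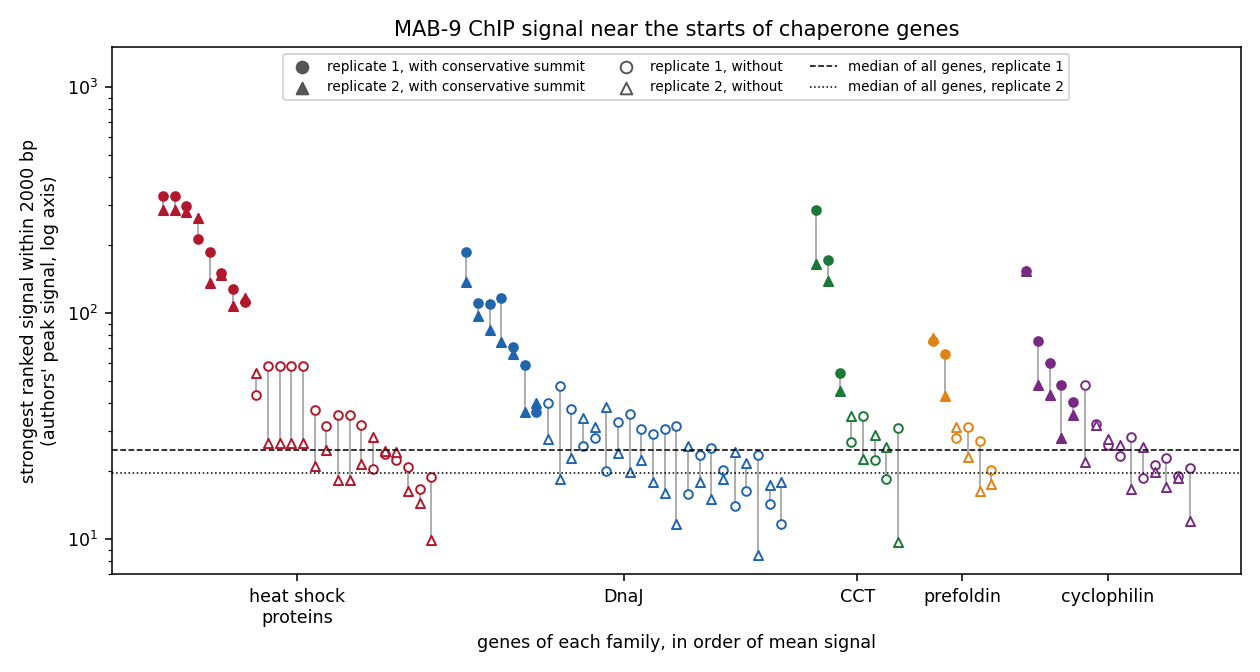
Strongest ranked signal within 2000 bp of a start (log axis) for the 81 members with a value in both replicates, in order of mean within each family; circles are replicate 1, triangles replicate 2, filled where a conservative summit was present, and grey lines join the replicates. Called members run from 331 down to 28.1. Uncalled members scatter about the medians of all genes (24.9 and 19.6), with a median percentile of 64.2 by the mean of both replicates.

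The share called ran from 24.1% of DnaJ genes to 37.5% of CCT genes, with 33.3% of heat shock protein and of prefoldin genes. Over all protein-coding genes it was 7.92%. The families differed more in the signal of their called members. Its median was 406 for heat shock proteins, 300 for CCT, 189 for DnaJ, 136 for prefoldin and 100.5 for cyclophilins, against 114 over all called genes and 98.7 over all conservative peaks. These medians rest on 8, 3, 7, 2 and 5 genes, and differences between families were not tested. Over the 7 distinct peaks of the heat shock proteins, with the shared F44E5.4 and F44E5.5 peak counted once, the median was 338. The order was not stable: the heat shock median was 237 in the other pooled list, below CCT, and 160.3 under the nearest gene, below DnaJ at 197.5. Over all members, called or not, the median of the replicates' mean was 42.5 for heat shock proteins, 29.9 for CCT, 28.5 for prefoldin, 28.1 for DnaJ and 26.97 for cyclophilins, with 22.4 for all genes. The heat shock value of 42.5 is that of the summit shared by the 4 genes of the hsp-16.1 cluster. Its median was 50.98 in replicate 1 and 26.5 in replicate 2, where CCT had 31.99 and prefoldin 27.3, and within 1000 bp it was 26.98. Of the members with a value in both replicates, 31 of 81 lay in the top 10% of all genes.

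Called members had closer replicate values than uncalled ones, but calling rested on both replicates, which partly fixes this in advance. The log2 ratio of replicate 1 to replicate 2 had a median of 0.25 and an SD of 0.30 over the 25 called members, with replicate 1 higher at 20 of 25, and all 25 within 2-fold. Over all 1580 called genes with a value in both replicates, the median was 0.19 and the SD 0.43. The strongest summits of the replicates lay within 100 bp of each other at 23 of 25 called members (92.0%), beside 89.1% of all called genes. Among uncalled members this held for 11 of 56 (19.6%), beside 20.3% of all uncalled genes. The ranks of the replicates' signals had a Spearman rho of 0.96 over called members and 0.20 over the 56 uncalled members. Over all called genes it was 0.77. Genes that share a peak, as F44E5.4 and F44E5.5 do, are not independent points, and the conservative list was itself made from both replicates. The rho values are across genes, which share libraries, and are given as a description.

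**Figure D3:**
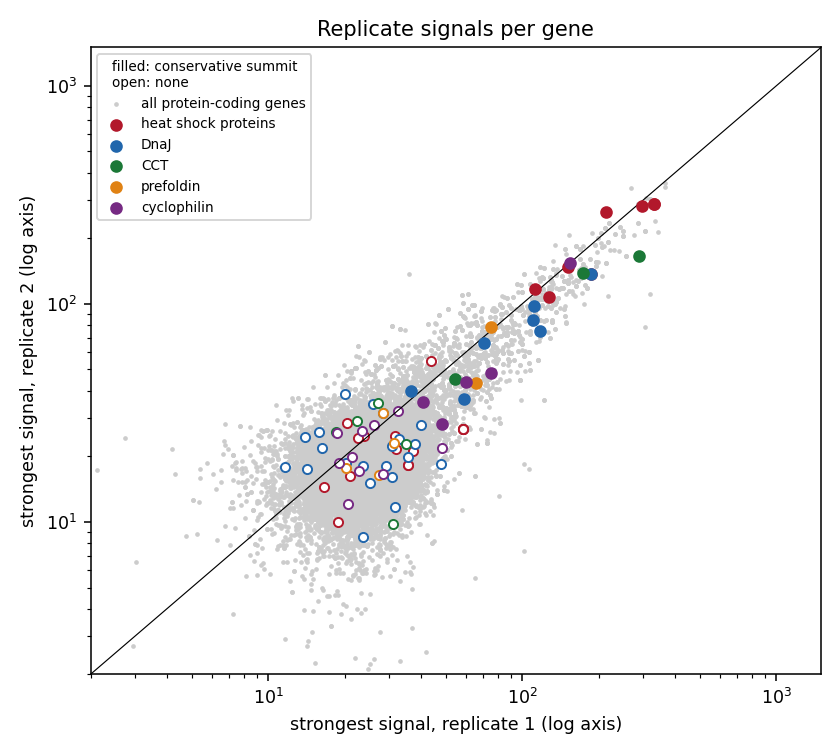
Strongest ranked signal within 2000 bp of a start in replicate 1 against replicate 2 (both log axes), all protein-coding genes in grey and members in colour, filled where called; the line marks equal values. Called members lie along the line up to 331 and 287, and uncalled members lie within the cloud of all genes.

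Summits of called members lay just upstream of the starts. Of 25 called members, 24 (96.0%) had the summit within 600 bp upstream, the exception being hsp-12.3, while 49.9% of all called genes did. The median offset was 222 bp upstream, against 250 bp over all called genes. A distance of 1000 bp kept all 25 members (beside 5.69% of all genes), and 500 bp kept 23 (27.7%, beside 4.31%), losing hsp-60 and hsp-12.3. By the nearest summit, of whatever signal, no member came close to the limit of 2000 bp from inside. The farthest were hsp-60 at 587 bp and hsp-12.3 at 703 bp, the latter a weak summit (21.8) other than its strongest one. The nearest members outside the limit were hsp-12.6 at 2424 bp, dnj-16 at 2794 bp and dnj-3 at 2798 bp.

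**Figure D4:**
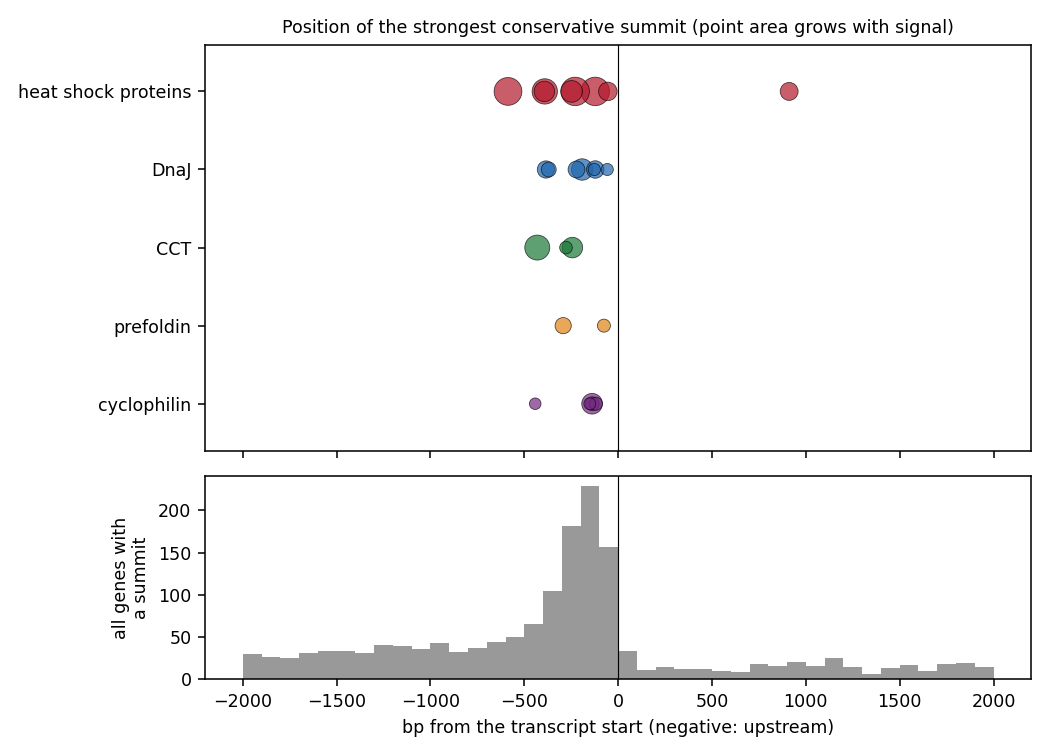
Distance in bp from the transcript start to the strongest conservative summit, negative upstream, for called members by family (top, point area grows with signal) and as a histogram of all called genes (bottom). In all 5 families the points lie upstream of the start within 600 bp, apart from hsp-12.3 at 911 bp downstream.

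Many of these peaks were shared with a neighbour. Another protein-coding gene's start lay within range at 24 of 25 called members, and at 12 of them a gene other than the member was nearest. The upstream neighbour was divergent at 18 of 25 called members (72.0%) and at 31 of 58 uncalled members (53.4%). The same counts over all called genes are not given here, so they are not read as particular to the members. When each summit counted only for the gene with the nearest start, 16 members were called (19.3%, beside 4.99% of all genes). Over all protein-coding genes, this rule kept 996 of the 1581 called genes. The CCT count fell to 0 of 8, since all 3 CCT peaks were nearer to a divergent partner, and the heat shock count to 6 of 24. Restricting the list to peaks at or above its median signal left 20 members (24.1%, beside 4.83% of all genes).

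Heat shock units were found at many of these summits. The patterns differ in how often they match anywhere, so each share is given beside that of all conservative windows. A pair of heat shock units lay within 100 bp of the summit in 12 of 24 member windows (50%), beside 228 of 1431 conservative windows (15.9%). Arrays of 3 units lay in 4 of 24 (16.7%), those of F44E5.4, hsp-110, dnj-12 and cyn-7, beside 23 of 1431 (1.61%). By family the pair was in 4 of 7 heat shock, 3 of 7 DnaJ, 3 of 3 CCT, 0 of 2 prefoldin and 2 of 5 cyclophilin windows. The F44E5.4 window held 8 overlapping matches in 2 clusters, 1 of them spanning the summit. In the hsp-90 window a match began 2 bp past the summit, in cyn-3 3 bp and in dnj-13 6 bp. The hsp-60 window, with a signal of 578, held none.

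In promoters from 250 bp before to 50 bp after the gene start, a pair lay in 13 of 25 called members (52.0%), in 28 of 58 uncalled members (48.3%) and in 32.5% of all 19973 genes. Arrays of 3 units lay in 24.0% of called members, 13.8% of uncalled members and 1.97% of all genes. These differences were not tested. Signals of member windows with a pair ran from 70.9 to 607 with a median of 298, and those without from 83.5 to 578 with a median of 181.

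The T-box site AGGTGTGA lay in 0 of 24 member windows, beside 3 of 1431 conservative windows. In promoters, which are longer than the windows, it lay in 0 of 25 called members, 0 of 58 uncalled members and 0.781% of all genes. Its core AGGTGT lay in 2 windows (8.33%, beside 4.96%), those of cyn-10 and pfd-1, more than 90 bp from the summit. In promoters the core lay in 8.0% of called members, 3.45% of uncalled members and 8.8% of all genes. GAGAGAGA lay in 2 windows (8.33%, beside 9.64%), those of dnj-13 and hsp-1, and the E-box CACGTG in 0 (beside 7.20%). TGACGTG, the core bound by the unfolded protein response factor XBP-1, lay in 3 windows (12.5%, beside 2.87%), those of hsp-3, dnj-28 and cyn-4. All patterns were searched on both strands. GAANNTTC and TTCNNGAA each read the same on both strands and overlap in arrays, and AGGTGT is part of AGGTGTGA. The median GC of the member windows was 41.04%, below the 44.8% of all conservative windows.

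**Figure D5:**
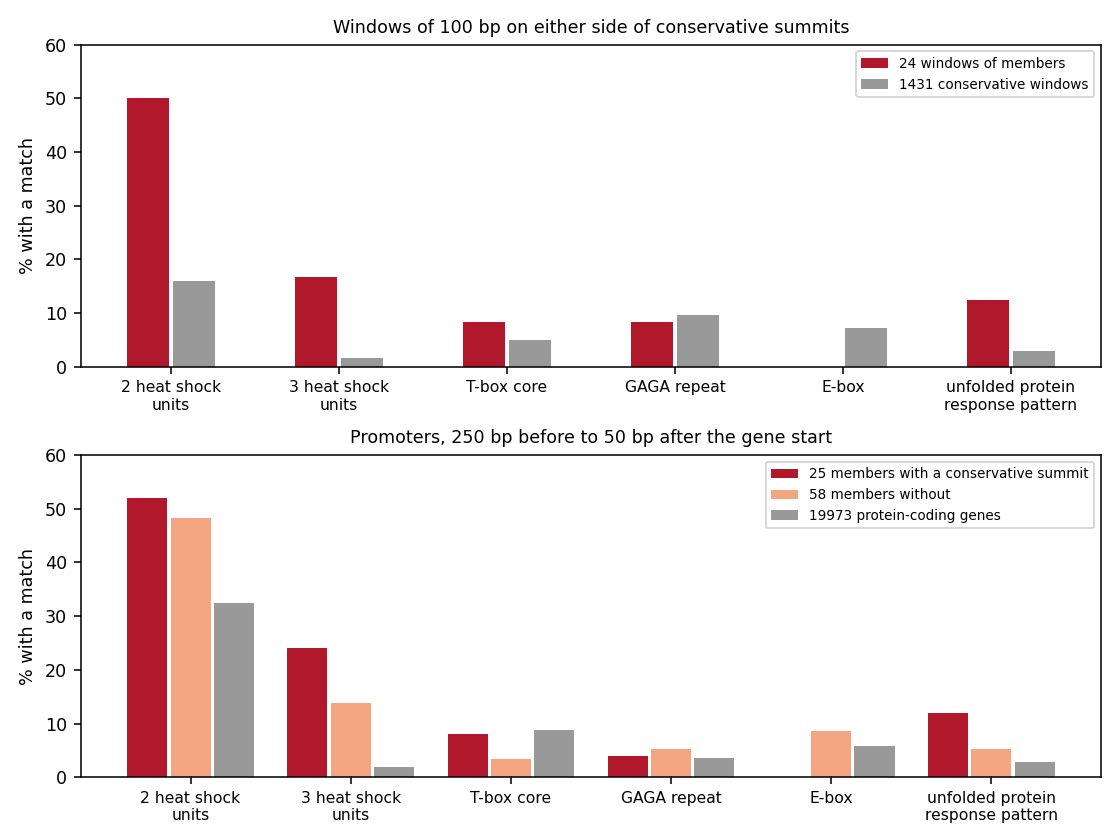
Percentage of sequences with a match to each pattern, in windows from 100 bp before to 100 bp after conservative summits (top: members in red, all conservative peaks in grey) and in promoters (bottom: called members, uncalled members and all protein-coding genes). Heat shock units reach 50% of member windows and 15.9% of all windows, but 52.0% of called and 48.3% of uncalled members' promoters.

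Sequence that repeats in the genome touched few of these peaks. In 21 of 24 member windows every 31-mer occurred once. The exceptions were F44E5.4 (93.0% of 31-mers once), hsp-12.3 (84.2%) and dnj-28 (76.0%), and the summits past the ends of F44E5.4 and F44E5.5 lay in windows where all 31-mers occurred once.

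Other genes of protein folding and its regulation carried peaks as well. From a list of 46 co-chaperones, folding enzymes and stress regulators, 19 (41.3%) were called, beside the 7.92% of all genes. The list was drawn up with earlier results of these data known. The highest signals were at cdc-48.1 (521, with 305 and 215 in the replicates), an unfolding ATPase, and at bag-1 (309, with 168 and 143), an HSP70 exchange factor. Folding factors of the endoplasmic reticulum followed, with crt-1 (calreticulin) at 189, pdi-3 at 164, enpl-1 (GRP94) at 154, cnx-1 (calnexin) at 137, pdi-2 at 125 and pdi-6 at 116. Also of the endoplasmic reticulum, pdi-1 (19.7 and 14.6 in the replicates) and ero-1 (9.37 and 24.5) were not called. The pdi-3 summit was nearer to ubql-1. The cnx-1 summit lay at an offset of -1880 bp and 39 bp from the start of panl-3.

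HSP90 co-chaperones called were sti-1 (157, with 74.8 and 86.6), which links HSP70 to HSP90, ahsa-1 (137), the FK506-binding isomerase fkb-6 (103.8) and the phosphatase pph-5 (65.0). For ahsa-1, fkb-6 and pph-5 another gene was nearest, namely C01G10.7, F31D4.2 and Y39B6A.3. The co-chaperone genes cdc-37 (17.1 and 23.1 in the replicates), daf-41 (26.3 and 19.6), unc-45 (20.6 and 23.7), sgt-1 (27.8 and 29.7) and chn-1 (11.3 and 14.3) were not called. Of the 8 genes fkb-1 to fkb-8, fkb-6 alone was called. The small heat shock gene sip-1, not a member by its symbol, had 157, with sly-1 nearest. The HSP70 cofactor unc-23 had 108.9. The mitochondrial protease gene clpp-1 had 135, with mdt-22 nearest. Stress regulators called were atf-6 (94.9) and xbp-1 (90.03), of the unfolded protein response, and atfs-1 (71.8), of its mitochondrial form. Also called was skn-1 (83.7, with the summit 1634 bp upstream). Of the unfolded protein response, ire-1 (29.1 and 17.8 in the replicates) and pek-1 (26.3 and 14.7) were not called. Also uncalled in the list were dve-1, ubl-5, haf-1, lonp-1, daf-16, hsb-1, ddl-1, ddl-2, hip-1 and cdc-48.2. The heat shock factor gene hsf-1 itself was not called, with 23.01 in replicate 1 and 36.2 in replicate 2 (29.6 ± 9.34, SD, n = 2). Neither the control library nor data on other transcription factors were analysed here, and whether such peaks are particular to MAB-9 was not tested.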

How the data were processed

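Peak lists from anti-GFP ChIP-seq of 2 replicates were used, with coordinates of the ce11 build per the labels. The text files deposited with the samples state that the authors derived the lists from alignments and a control file. For aligner, peak caller and read length, nothing is given in the sources used here. No scale is stated for the signal that the authors deposited with each peak. The ranked lists also hold the −log10 of the irreproducible discovery rate, as the authors deposited it; this was read from the usual column order, and no result here uses it. The files used give no read counts, so depth is unknown and no interval is given.

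For each gene (Ensembl release 115, WBcel235) the strongest summit within 2000 bp of any transcript start was taken. Promoter and window sequence came from RefSeq WBcel235, whose chromosome lengths hold every peak. No test was made: there is 1 group, and set tests were not used. Member families, patterns and lists were chosen with earlier results of these data known. Named genes are all called members, the 2 highest and 2 lowest uncalled of each family, hsf-1 and the called genes of the proteostasis list. Further heat shock genes (hsp-4, hsp-70, hsp-75, hsp-16.2, hsp-16.41) and the other prefoldin genes were added after their values were seen. So were dnj-5, dnj-16, dnj-21, cyn-11 and the other uncalled genes named from the proteostasis list. Alternatives were another pooled list, each replicate's list, other distances, a stricter signal and the nearest gene. The assignment of summits and the pattern search were tested on simulated data. Tools were pandas 2.3.3 and NumPy 2.4.6 under Python 3.11.15, with figures from matplotlib 3.10.9 and rank correlations from SciPy 1.17.1. Genes with the same symbol were told apart by gene ID.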

Additional observations from a re-analysis of the deposited data

How the results depend on the processing

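Of the member counts, those of all members and of the heat shock, CCT and DnaJ families kept within 1.5 times their value in each replicate's own list, at distances of 1000 and 500 bp and among peaks at or above the median signal. Counting a summit only for the nearest gene lowered the total from 25 to 16, DnaJ from 7 to 4 and CCT from 3 to 0. The other pooled list raised heat shock proteins from 8 to 13, by hsp-6 and the 4 genes of the hsp-16.1 cluster, which share 1 peak. In the replicates' own lists prefoldin had 1 member in each instead of 2, and cyclophilins had 3 (replicate 1) and 2 (replicate 2) instead of 5; cyclophilins also had 3 among peaks at or above the median signal. Under the nearest gene, 3 named signals moved, F44E5.5 to 3.20, hsp-110 to 83.7 and hsp-12.3 to 21.8, and 9 called members had no summit of their own. Family medians of the ranked signal moved under the nearest gene to 24.7 for all members, 25.1 for heat shock proteins, 22.4 for CCT and 23.9 for cyclophilins, and within 1000 bp to 22.4 for DnaJ and 40.3 for CCT, where 6 of 8 genes had a value. The heat shock median moved from 42.5 to 26.98 within 1000 bp, and was 50.98 in replicate 1 and 26.5 in replicate 2. In single replicates the CCT median was 33.0 and 31.99, against 29.9 for the mean of both. The median signal of called heat shock proteins, 406, was 237 in the other pooled list and 160.3 under the nearest gene. The nearest gene rule assigns shared peaks to fewer genes by its construction; the cause of the other shifts was not tested. With 2 replicates and unknown depth, a summit missing from the list does not show missing binding. No paired analysis was possible because there is 1 group.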
